A study of Mus musculus with 25 samples.

Results

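Whether the loss of Mst1 acted differently at an early and a late stage of thymic invariant natural killer T (iNKT) cell development was measured as a difference of differences. The Mst1KO minus WT difference at S1_S2 was subtracted from the Mst1KO minus WT difference at S3. The 16 arrays with the lower run of title numbers, of 25 in the series, carry the 4 groups needed: 3 WT_S1_S2, 4 Mst1KO_S1_S2, 4 WT_S3 and 5 Mst1KO_S3 arrays. They were chosen by their labels and numbers alone. All mice were C57BL/6. The cells of every group were sorted from thymus as TCR beta positive, CD1d-PBS57 tetramer positive and CD24 negative. S1 (CD44 negative, NK1.1 negative) and S2 (CD44 positive, NK1.1 negative) are labelled together as S1_S2, and S3 is CD44 positive and NK1.1 positive. WT mice carried no named alteration, and the labels call the other genotype Mst1KO without naming the allele, a Cre driver, the age or sex of the mice, or whether animals were pooled. The remaining 9 arrays are 6 WT arrays with higher title numbers, called the second run here after a gap in the numbers, and 3 dKOMst arrays, which were not used. The labels name no batch. Within the 16 arrays a wider gap in the numbers separates all S1_S2 arrays from all S3 arrays, and smaller jumps separate the genotypes. The numbers therefore do not establish separate runs, and first run and second run are only names for these sets of arrays. P-values measure the spread between arrays, which nothing in the labels ties to separate mice.

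Mst1, encoded by Stk4, is a kinase of the Hippo pathway. In many tissues it acts with Sav1, Mob1 and the Lats kinases to restrain the co-activators Yap and Taz, and in lymphocytes it is also known to act with Rassf5 in adhesion, migration and survival. iNKT cells recognise lipids on CD1d and pass in the thymus from dividing, immature cells to CD44 and NK1.1 positive cells, most of which are NKT1 cells with NK receptors and cytotoxic granules.

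Levels are log2 values on the deposited RMA scale, on which 1 unit is a doubling, and ± after a difference is the standard error of the limma model. The 16 arrays had medians of 7.28 to 7.39 and negative control medians of 6.19 to 6.59, and within groups they correlated at 0.982 to 0.993. The control medians were 6.27 to 6.55 in WT_S1_S2 and 6.43 to 6.55 in Mst1KO_S1_S2. At S3 they were lower in WT, at 6.19 to 6.37, than in Mst1KO, at 6.36 to 6.59, with a slight overlap. The part of this S3 difference in the values of dim genes below was not tested. The sort markers followed the labels. Klrb1c, the NK1.1 gene, read 8.49 to 9.52 on the S1_S2 arrays and 12.2 to 12.7 on the S3 arrays. Its 9.52 was on WT_S1_S2 replicate 3, with 8.61 and 8.49 on the other WT_S1_S2 arrays. The mean level of the NKT1 genes described below was 8.49 on that array and 7.55 and 7.54 on the others of its group. Second-run WT_S1_S2 arrays read 9.40 to 10.15 for Klrb1c, and the cause of these differences was not tested. Cd44 read 9.58 to 10.1 on the S1_S2 arrays and 10.63 to 10.98 on the S3 arrays, and Cd24a lay under the negative controls on all 16. Zbtb16, which encodes the iNKT transcription factor PLZF, read 11.36 or more on each array. Stk4 read 10.2 to 10.4 in WT_S1_S2 and 9.22 to 9.40 in Mst1KO_S1_S2, a fall of 1.00 (limma, adjusted p = 0.016). At S3 the groups overlapped, at 9.69 to 10.49 in WT and 9.43 to 10.13 in Mst1KO (difference -0.29, limma adjusted p = 0.31), so the group names below rest on the labels. In the second run WT_S3 read 10.49, 10.65 and 10.74, above each Mst1KO_S3 array. Second-run WT_S1_S2 was also above first-run WT_S1_S2, at 10.54 to 10.74. How much of this gap lies between the runs was not tested. No source here places the Stk4 probes inside or outside the deletion, and the stage dependence of Stk4 was 0.72 ± 0.23 (limma, adjusted p = 0.47). Replicates 3 and 4 of both Mst1KO groups had no Y-linked signal and the other 12 arrays had it. In bulk samples, fewer cells of a type and less RNA per cell cannot be told apart, and the mix of S1 and S2 cells in the S1_S2 samples was not measured.

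Few genes had a Mst1 effect that differed between the stages beyond the spread of the arrays. Of 22206 transcript clusters 10 did (0.045%), 5 with a more positive effect at S3 (0.0225%) and 5 with a more negative one (0.0225%; limma, adjusted p under 0.05). Each is a named gene. An unadjusted p under 0.05 was reached by 1660 clusters (7.48%), 752 of them positive (3.39%) and 908 negative (4.09%). Mst1 loss by itself changed 64 clusters at S1_S2 (0.288%), 42 higher (0.189%) and 22 lower (0.0991%), and 679 at S3 (3.06%), 431 higher (1.94%) and 248 lower (1.12%). The median standard error was 0.14 at S1_S2 and 0.12 at S3, and 0.18 for the stage dependence. The count of 10 depended on single arrays. Leaving out 1 array gave 2 (WT_S1_S2 replicate 2), 3 (WT_S1_S2 replicate 1, Mst1KO_S1_S2 replicate 1 or WT_S3 replicate 2) or 4 (Mst1KO_S1_S2 replicate 2). It gave 5 (Mst1KO_S3 replicate 4 or 5), 6 (Mst1KO_S1_S2 replicate 3, WT_S3 replicate 1 or 3) or 7 (Mst1KO_S3 replicate 2). In the other cases it gave 8 (Mst1KO_S1_S2 replicate 4 or Mst1KO_S3 replicate 3), 11 (Mst1KO_S3 replicate 1), 18 (WT_S3 replicate 4) or 21 (WT_S1_S2 replicate 3). With the 6 second-run WT arrays in place of the 7 WT arrays, 37 clusters passed (0.167%), 26 positive (0.117%) and 11 negative (0.0495%), and 3 of the 10 were among them. All 10 kept their direction there. On the 12 arrays with Y-linked signal 2 passed, Gzma at -2.69 and Nfil3 at -1.34 (limma, adjusted p = 0.00094 and 0.0096). The count at S1_S2 was 13 without WT_S1_S2 replicate 1, 108 without WT_S1_S2 replicate 3, and 41 and 39 without Mst1KO_S1_S2 replicates 2 and 4. That at S3 was 436 without WT_S3 replicate 3, and 385 and 342 without Mst1KO_S3 replicates 2 and 5.

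Among the 10 genes, 3 had the larger effect at S3 (Gzma, Tia1 and E2f8), 3 at S1_S2 (Ly6c2, Ly6c1 and Hlf), and 3 had effects of opposite sign of at least 0.3 at the stages (Bhlhe40, Dzip1 and Ccr9). Cfap20dc fell at S1_S2 and was not measured at S3. This grouping describes fitted effects and was not tested further.

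**Figure D1:**
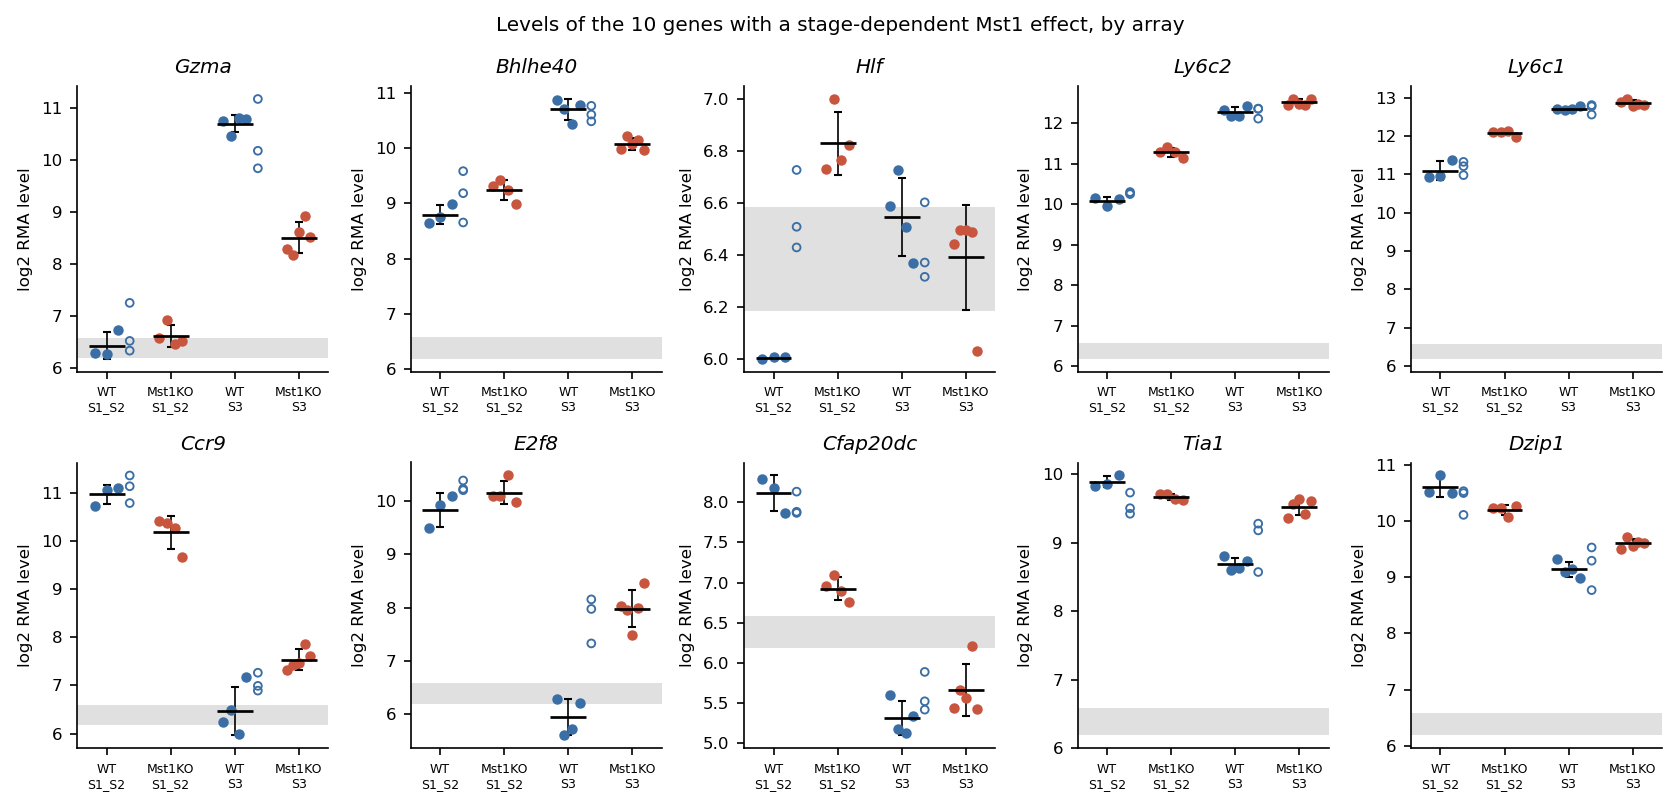
Levels (log2 RMA) of the 10 genes by array: filled points are the 16 arrays, bars the group mean with SD, open circles the 6 second-run WT arrays, and the grey band the range of the negative control medians. Gzma is lower in Mst1KO at S3 and near the band at S1_S2, Ly6c2 and Ly6c1 are higher in Mst1KO at S1_S2, and the second-run WT_S3 circles of E2f8 reach the Mst1KO_S3 points.

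Gzma encodes granzyme A, a serine protease of cytotoxic granules, and had the largest stage dependence of the 10. It read 6.30, 6.28 and 6.73 in WT_S1_S2 and 6.57, 6.93, 6.46 and 6.53 in Mst1KO_S1_S2, levels at the negative controls. In WT_S3 it read 10.74, 10.45, 10.81 and 10.79, and in Mst1KO_S3 8.30, 8.18, 8.62, 8.93 and 8.51. Every Mst1KO_S3 array was thus below every WT_S3 array, and the S1_S2 groups overlapped. Gzma fell by 2.19 with Mst1 loss at S3 (limma, adjusted p = 3.9e-07), where at S1_S2 Mst1KO was higher by 0.19 (adjusted p = 0.90), a stage dependence of -2.38 ± 0.23 (limma, adjusted p = 0.00018). The call held when any of the 16 arrays was left out. With second-run WT arrays, where WT_S3 ranged from 9.84 to 11.17, it was -1.81 (limma, adjusted p = 0.072). Since Gzma lay above the controls on 2 of 3 WT_S1_S2 and 2 of 4 Mst1KO_S1_S2 arrays, its S1_S2 difference is inexact. The granule genes Gzmb (granzyme B) and Prf1 (perforin) had stage dependences of -0.36 ± 0.40 and -0.39 ± 0.36 (limma, adjusted p = 0.88 and 0.84). Their 95% intervals, -1.21 to 0.48 and -1.15 to 0.36, do not reach the value of Gzma but include 0. Without single arrays they ran from -0.92 to 0.10 and from -0.71 to -0.09, and with second-run WT arrays they were -0.39 and -0.94. Of 17 cytotoxic effector genes measured 1, Gzma, passed, and their median was -0.11, beside -0.03 over all clusters.

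Tia1 encodes an RNA-binding protein of stress granules. It read 9.83, 9.86 and 9.98 in WT_S1_S2 and 9.70, 9.72, 9.64 and 9.62 in Mst1KO_S1_S2. At S3 it read 8.80, 8.60, 8.63 and 8.73 in WT and 9.37, 9.56, 9.64, 9.43 and 9.61 in Mst1KO, so the groups were apart at both stages but in opposite order. The S3 rise of 0.83 passed the test (limma, adjusted p = 3.3e-05), the S1_S2 difference of -0.22 did not (adjusted p = 0.56), and the stage dependence was 1.05 ± 0.12 (limma, adjusted p = 0.0017). This call also held without any 1 array. It was 0.39 with second-run WT arrays (limma, adjusted p = 0.51), where WT_S3 read 8.57 to 9.28.

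The paralogs Ly6c2 and Ly6c1 encode GPI-anchored surface proteins of effector and memory T cells. Ly6c2 read 10.16, 9.95 and 10.12 in WT_S1_S2 and 11.28, 11.41, 11.29 and 11.13 in Mst1KO_S1_S2, a rise of 1.20 (limma, adjusted p = 1.5e-05) with no overlap. At S3 WT read 12.16 to 12.43 and Mst1KO 12.45 to 12.59, a difference of 0.24 (limma, adjusted p = 0.13). Its stage dependence was -0.96 ± 0.13 (limma, adjusted p = 0.0091), and the call was lost in 1 of 16 omissions, that of WT_S1_S2 replicate 2 (adjusted p = 0.053). Ly6c1 rose by 0.99 at S1_S2 (limma, adjusted p = 0.00017), from 10.94 to 11.38 in WT to 11.99 to 12.13 in Mst1KO, and differed by 0.14 at S3. Its stage dependence of -0.85 ± 0.14 (limma, adjusted p = 0.033) passed in 5 of 16 omissions, those of WT_S1_S2 replicate 3, Mst1KO_S1_S2 replicate 4, WT_S3 replicate 4 and Mst1KO_S3 replicates 1 and 2, with adjusted p from 0.0027 to 0.11. Both passed with second-run WT arrays, at -0.77 each (limma, adjusted p = 0.025 and 0.030). Their transcripts are closely alike, so part of each signal could come from the other, and they are not independent of each other.

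Ccr9 encodes the receptor for the chemokine CCL25, which draws thymocytes to and within the thymus. It read 10.74, 11.06 and 11.10 in WT_S1_S2 and 10.41, 10.38, 10.26 and 9.67 in Mst1KO_S1_S2. In WT_S3 it read 6.23, 6.49, 5.99 and 7.16, above the negative controls on 2 of 4 arrays, and in Mst1KO_S3 7.31, 7.43, 7.47, 7.86 and 7.61. Mst1KO was thus lower than WT on each S1_S2 array and higher on each S3 array. The S3 rise of 1.07 passed (limma, adjusted p = 0.0099), the S1_S2 difference of -0.78 did not (adjusted p = 0.26). The stage dependence was 1.85 ± 0.31 (limma, adjusted p = 0.034), and 1.40 with second-run WT arrays (limma, adjusted p = 0.034). It passed in 2 of 16 omissions, those of WT_S3 replicate 4 and Mst1KO_S3 replicate 1, with adjusted p from 0.0032 to 0.083.

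The transcription factor genes among the 10 were Bhlhe40, Hlf and E2f8, the last taken up below. Bhlhe40, a repressor with roles in T cell cytokine output, read 8.65 to 8.98 in WT_S1_S2 and 8.99 to 9.41 in Mst1KO_S1_S2, then 10.43 to 10.86 in WT_S3 and 9.97 to 10.22 in Mst1KO_S3. It fell by 0.62 at S3 (limma, adjusted p = 0.0076) and differed by 0.44 at S1_S2 (adjusted p = 0.23), a stage dependence of -1.06 ± 0.17 (limma, adjusted p = 0.030). It passed in 6 of 16 omissions, those of WT_S1_S2 replicate 3, Mst1KO_S1_S2 replicate 4, WT_S3 replicates 3 and 4 and Mst1KO_S3 replicates 1 and 2, with adjusted p from 0.012 to 0.10. Hlf, a PAR bZIP factor known from blood stem cells, lay under the negative controls on the 3 WT_S1_S2 arrays at 6.00 to 6.01 and read 6.73 to 7.00 in Mst1KO_S1_S2, a log2 difference of at least 0.39 (measured means 6.01 and 6.83, limma adjusted p = 0.0061). At S3 both groups were near the controls, at 6.37 to 6.73 in WT and 6.03 to 6.498 in Mst1KO, with Mst1KO above them on 1 of 5 arrays. Its stage dependence of -0.98 ± 0.16 (limma, adjusted p = 0.033) therefore rests on levels at the detection limit. Hlf passed in 5 of 16 omissions, those of WT_S1_S2 replicate 3, WT_S3 replicate 4 and Mst1KO_S3 replicates 1, 3 and 5, with adjusted p from 0.021 to 0.10. The values were -0.64 with second-run WT arrays for Bhlhe40 and -0.31 for Hlf (limma, adjusted p = 0.35 and 0.56). Nfil3, a bZIP factor needed for NK cell development, came just outside the threshold at -1.27 ± 0.22 (limma, adjusted p = 0.0502). Its S1_S2 rise of 1.09 passed (limma, adjusted p = 0.0082), with WT at 8.09 to 8.28 and Mst1KO at 9.11 to 9.60. At S3 WT lay at 9.51 to 9.67 and Mst1KO at 9.16 to 9.31 on 4 arrays and at 10.003 on replicate 4. Without that array the stage dependence of Nfil3 was -1.42 (limma, adjusted p = 0.00083), and with second-run WT arrays it was -0.72 (limma, adjusted p = 0.34).

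Cfap20dc and Dzip1, the latter encoding a zinc finger protein of the primary cilium, were the remaining pair. Cfap20dc fell at S1_S2 from 8.29, 8.18 and 7.87 in WT to 6.95, 7.09, 6.90 and 6.76 in Mst1KO, a difference of -1.19 (limma, adjusted p = 0.0061). At S3 no array of either group was above the controls, so the S3 difference was not measured and the fitted stage dependence of 1.54 ± 0.23 (limma, adjusted p = 0.021) is no exact size. It passed in 12 of 16 omissions, not without WT_S1_S2 replicate 1 or 2, Mst1KO_S1_S2 replicate 1 or WT_S3 replicate 2. Dzip1 read 10.504 to 10.81 in WT_S1_S2 and 10.07 to 10.27 in Mst1KO_S1_S2, and 8.98 to 9.32 in WT_S3 and 9.51 to 9.71 in Mst1KO_S3. Its S3 rise of 0.46 passed (limma, adjusted p = 0.012), its S1_S2 difference of -0.41 did not (adjusted p = 0.15). The stage dependence of 0.87 ± 0.14 (limma, adjusted p = 0.030) passed in 6 of 16 omissions, those of WT_S1_S2 replicate 3, Mst1KO_S1_S2 replicate 4, WT_S3 replicates 1 and 4 and Mst1KO_S3 replicates 1 and 3, with adjusted p from 0.019 to 0.083. With second-run WT arrays Cfap20dc was at 1.09 and Dzip1 at 0.58 (limma, adjusted p = 0.082 and 0.33).

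Next by p on the positive side came Lmna (nuclear lamins A and C) at 1.02 ± 0.18, Shq1 (assembly of H/ACA ribonucleoproteins) at 1.42 ± 0.25 and Eng (endoglin, a TGF-beta co-receptor) at 1.97 ± 0.36 (limma, adjusted p = 0.0502, 0.0502 and 0.071). On the negative side came Ppp1r3b (a glycogen-targeting phosphatase subunit) at -1.20 ± 0.23 and Jaml (a junctional adhesion protein) at -0.93 ± 0.18 (limma, adjusted p = 0.095 and 0.098). None passed. With second-run WT arrays Lmna was at 1.11 and Ppp1r3b at -1.58 (limma, adjusted p = 0.036 and 0.025), whereas Shq1 was at -0.27, Jaml at -0.30 and Eng at 1.54 (limma, adjusted p = 0.53 for Jaml and 0.24 for Eng).

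**Figure D2:**
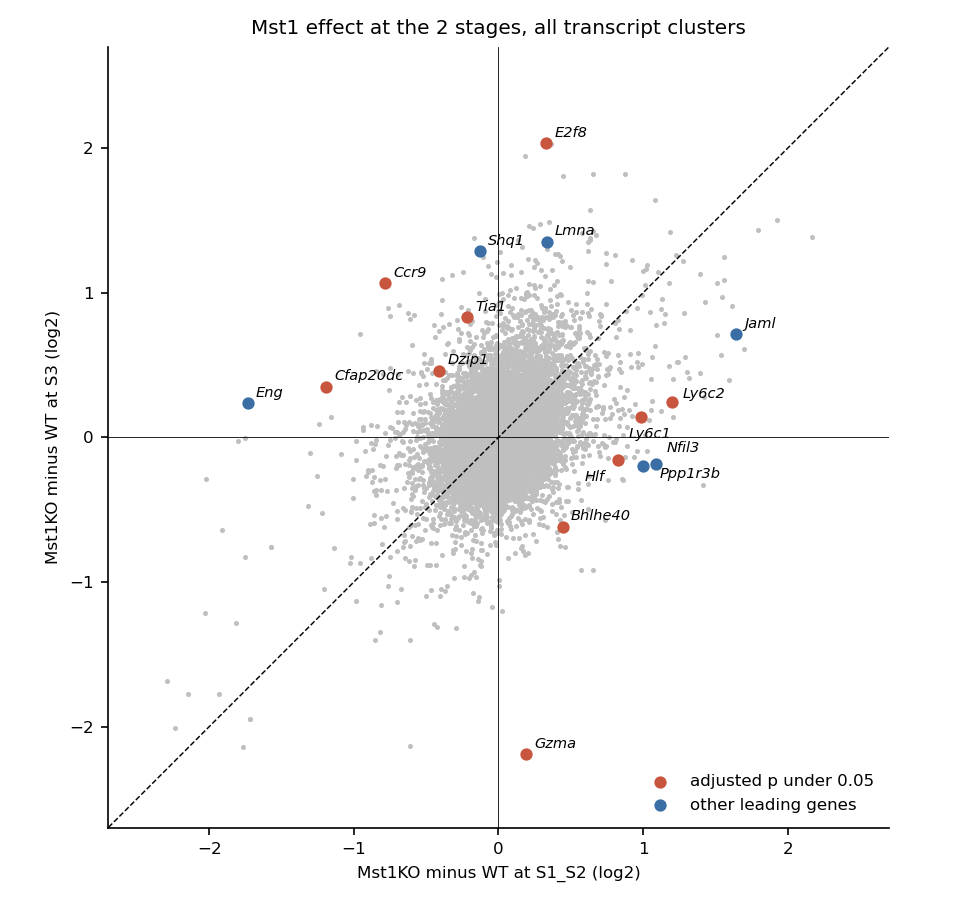
Mst1KO minus WT (log2) at S1_S2 on the x axis and at S3 on the y axis for 22206 transcript clusters, with the 16 leading genes coloured (red passed the stage dependence test, blue did not). The dashed line marks equal effects, and Gzma lies farthest below it, at 0.19 and -2.19.

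Cell cycle genes were the group with the highest median stage dependence of the 33 lists plotted. Of the 27 G1 to S phase genes measured 25 had a positive value, with a median of 0.48, where 44.5% of all clusters were positive with a median of -0.03. E2f8 alone passed the test, and 15 reached an unadjusted p under 0.05 in the positive direction, beside 3.39% of all clusters. The median Mst1 effect of the 27 was 0.01 at S1_S2, where none passed, and 0.50 at S3. There 11 rose and none fell, beside 1.94% and 1.12% of all clusters. Of the 26 G2 and M phase genes 22 were positive, with a median of 0.47, no call in limma and 7 at an unadjusted p under 0.05. Their median effect was 0.22 at S1_S2, where none passed, and 0.67 at S3, where 7 rose and none fell. The medians were 0.51 and 0.67 with second-run WT arrays. Both lists had been drawn up with earlier results of these arrays known, so their direction is no independent evidence.

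The mean level of the G1 to S genes was 9.36 to 9.57 on the WT_S1_S2 arrays and 9.30 to 9.61 on the Mst1KO_S1_S2 arrays, which overlapped. At S3 it was 8.07 to 8.40 in WT and 8.74 to 8.92 in Mst1KO, which did not. The G2 and M genes likewise ranged over 8.14 to 8.72 and 8.22 to 8.94 at S1_S2, and over 6.72 to 7.05 and 7.35 to 7.64 at S3. From S1_S2 to S3 the median G1 to S gene fell by 1.08 in WT and by 0.59 in Mst1KO, and the median G2 and M gene fell by 1.73 in WT and by 1.17 in Mst1KO. Levels in Mst1KO_S3 thus lay between those of WT_S3 and of the S1_S2 groups.

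E2f8, an atypical E2F that represses cell cycle genes, read 9.49, 9.93 and 10.09 in WT_S1_S2 and 10.10, 10.09, 10.48 and 9.98 in Mst1KO_S1_S2. In WT_S3 it read 6.27, 5.60, 5.72 and 6.20, above the negative controls on 1 of 4 arrays, and in Mst1KO_S3 8.03, 7.95, 7.48, 7.99 and 8.46. The S3 rise of 2.03 (limma, adjusted p = 2.1e-05) stood against 0.33 at S1_S2 (adjusted p = 0.81), and the stage dependence was 1.71 ± 0.28 (limma, adjusted p = 0.035). It passed in 4 of 16 omissions, those of Mst1KO_S1_S2 replicate 3, WT_S3 replicates 1 and 4 and Mst1KO_S3 replicate 3, with adjusted p from 0.021 to 0.10. In the second run E2f8 read 7.33, 7.97 and 8.15 in WT_S3, the last 2 within the span of Mst1KO_S3 and the first below it. Second-run WT_S1_S2 was also above first-run WT_S1_S2, at 10.21 to 10.39. The stage dependence of E2f8 with second-run WT arrays was 0.28 (limma, adjusted p = 0.79). E2f2, an activating E2F, and Dtl, a licensing ubiquitin ligase subunit, had 1.35 ± 0.26 and 1.48 ± 0.31 (limma, adjusted p = 0.088 and 0.13), and 0.60 and 0.83 with second-run WT arrays. Dtl was above the negative controls on 1 of 4 WT_S3 arrays. Mki67, the Ki-67 gene, read 11.10 to 11.51 and 11.17 to 11.80 at S1_S2, then 8.36 to 8.996 in WT_S3 and 9.89 to 10.45 in Mst1KO_S3. Its stage dependence was 1.20 ± 0.24, and 1.07 with second-run WT arrays (limma, adjusted p = 0.099 and 0.053). Cdk1, the mitotic kinase, had 0.88 ± 0.29 (limma, adjusted p = 0.47). Against the group's direction, the replication factor Cdc45 was at -1.15 and the cytokinesis gene Anln at -0.51, and Bub1 had an Mst1 effect of 0.88 at each stage.

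Since these genes moved in one direction as a group, their promoters are shown. Windows of 300 bases around the first annotated start (RefSeq, GRCm38.p6) were searched on both strands for the E2F motifs TTTCCCGC, TTTCGCGC, TTTGCCGC and TTTGGCGC, and for the cell cycle homology region TTTGAA found in promoters of G2 and M genes. No motif contains another, though matches can overlap at their ends. An E2F motif was present in 8 of the 23 G1 to S windows matched (34.8%), in 1 of 21 G2 and M windows (4.76%) and in 2.32% of all 27025 genes. TTTGAA was present in 3 of 23 (13%), 17 of 21 (81%) and 18.1% of all. The lists were drawn up by cell cycle phase, so these shares describe such genes and carry no evidence on Mst1 loss. Below, capitals mark a match on either strand, an E2F motif in E2f2 and Dtl and TTTGAA in E2f8 and Mki67. A match is a description of these letters, and these motifs are not shown to be bound in these cells.
E2f2 promoter, chr4:136172024-136172323, plus strand: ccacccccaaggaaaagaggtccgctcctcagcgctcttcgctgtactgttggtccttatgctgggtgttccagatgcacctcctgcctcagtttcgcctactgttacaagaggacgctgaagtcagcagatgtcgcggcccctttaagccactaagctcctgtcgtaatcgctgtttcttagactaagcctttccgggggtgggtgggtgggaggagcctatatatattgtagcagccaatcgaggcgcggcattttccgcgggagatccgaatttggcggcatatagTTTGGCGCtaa
Dtl promoter, chr1:191575495-191575794, minus strand: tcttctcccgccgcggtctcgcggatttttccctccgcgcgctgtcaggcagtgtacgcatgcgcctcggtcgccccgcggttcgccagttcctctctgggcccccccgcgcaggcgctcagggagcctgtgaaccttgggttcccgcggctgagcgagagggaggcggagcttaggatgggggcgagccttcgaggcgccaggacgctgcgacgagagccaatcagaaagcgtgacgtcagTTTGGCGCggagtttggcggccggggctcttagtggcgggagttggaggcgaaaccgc
E2f8 promoter, chr7:48881547-48881846, minus strand: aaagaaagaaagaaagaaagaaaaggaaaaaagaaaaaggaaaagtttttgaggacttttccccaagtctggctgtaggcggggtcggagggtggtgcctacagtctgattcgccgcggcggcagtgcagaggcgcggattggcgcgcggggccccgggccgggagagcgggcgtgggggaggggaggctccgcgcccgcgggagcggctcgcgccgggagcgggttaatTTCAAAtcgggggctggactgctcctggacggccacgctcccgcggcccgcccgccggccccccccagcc
Mki67 promoter, chr7:135716330-135716629, minus strand: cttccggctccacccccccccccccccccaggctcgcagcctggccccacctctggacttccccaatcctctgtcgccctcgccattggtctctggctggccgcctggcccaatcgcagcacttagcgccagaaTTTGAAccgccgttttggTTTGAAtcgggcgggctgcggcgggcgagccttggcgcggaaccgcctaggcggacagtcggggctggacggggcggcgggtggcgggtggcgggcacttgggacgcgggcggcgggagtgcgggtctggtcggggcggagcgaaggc

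**Figure D3:**
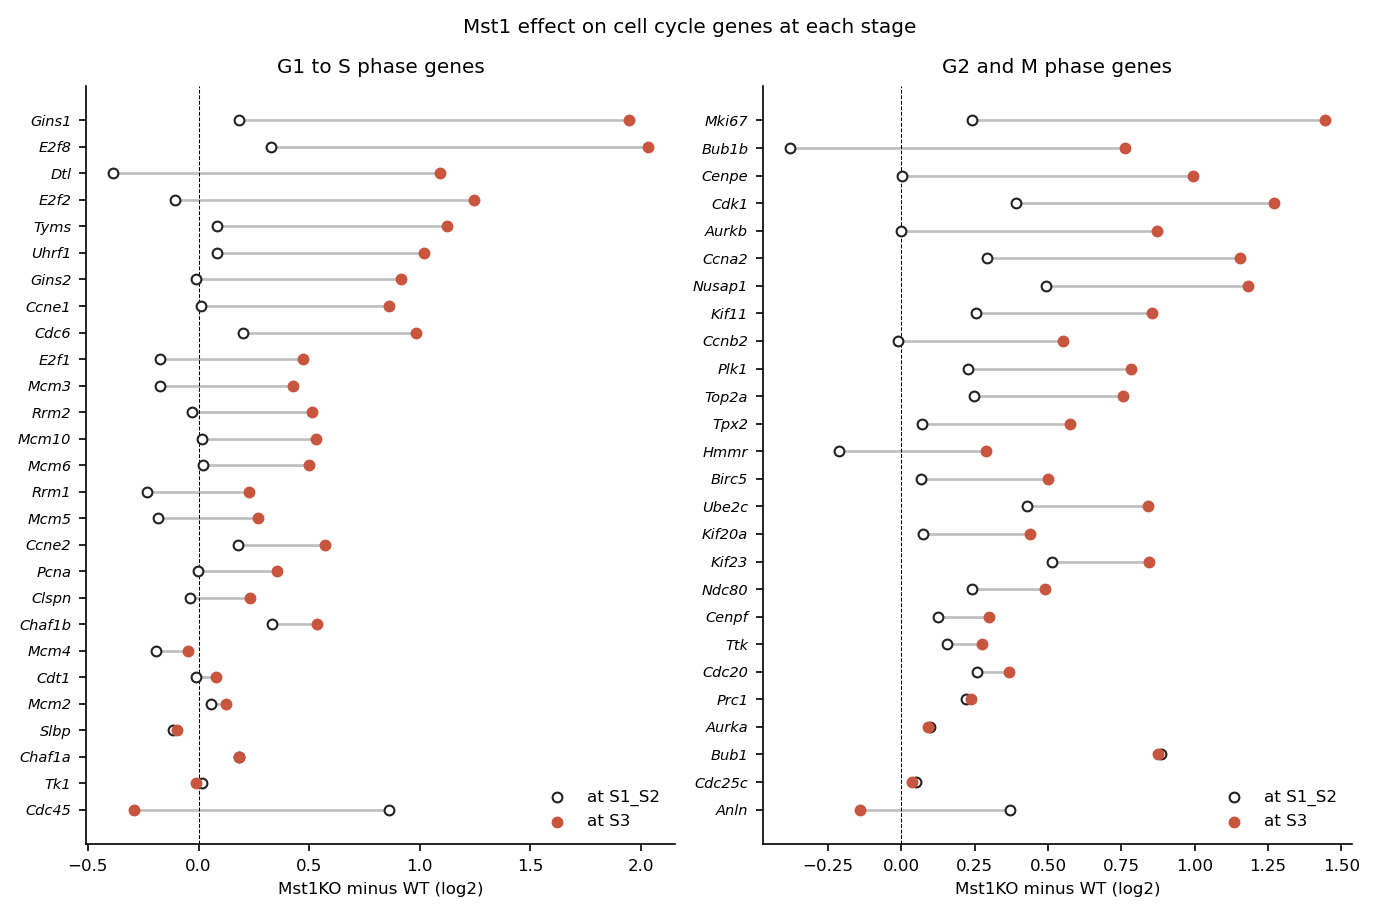
Mst1KO minus WT (log2) of each measured G1 to S gene (left) and G2 and M gene (right) at S1_S2 (open) and at S3 (filled), ordered by stage dependence. At S3 the points lie to the right of those at S1_S2 for 25 of 27 and 22 of 26 genes.

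Genes that fall or rise between the stages were chosen on the 6 second-run WT arrays, with a step of at least 1 (limma, adjusted p under 0.05), and described on the 16 arrays, so their choice shares no array with the values. Of the 361 clusters that fell (1.63% of those tested), 285 (78.95%) had a positive stage dependence, beside 44.07% of the clusters in neither set. The median was 0.31 with quartiles of 0.05 and 0.58. Of the 361, 4 passed with a positive value, beside 0.0225% of all clusters. The median step of the 361 was -1.21 in WT and -0.88 in Mst1KO. The median Mst1 effect was 0.04 at S1_S2 and 0.34 at S3. Without the members of both cell cycle lists, 325 clusters gave a median of 0.28, and these still hold other genes of dividing cells, such as histone genes. The next values are for all 361 falling clusters, cell cycle genes included. Relative to the WT mean of the same stage, their median was 0.26 to 0.45 on the Mst1KO_S3 arrays (SD 0.08 over 5 arrays). It was -0.03 to 0.02 on the WT_S3 arrays and -0.16 to 0.17 on the Mst1KO_S1_S2 arrays. The S3 groups did not overlap in this measure and the S1_S2 groups did. The 4 that passed are Ccr9, E2f8, Cfap20dc and Dzip1. In 234 of the falling clusters WT was above the negative controls on every first-run array of both stages. Their median stage dependence was 0.29, and 1 of them passed, Dzip1.

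The 266 clusters that rose in the second-run WT arrays (1.2%) had a median of the opposite sign and smaller size. Of these 171 (64.29%) had a negative stage dependence, beside 55.93% of the clusters in neither set. The median was -0.14 with quartiles of -0.43 and 0.15. Of the 266, 4 passed with a negative value (Gzma, Ly6c2, Ly6c1 and Bhlhe40), beside 0.0225% of all clusters. The median step of the 266 was 1.28 in WT and 1.17 in Mst1KO, and in this set the arrays of the genotypes overlapped at both stages. Leaving out WT_S1_S2 replicate 3 gave a median of -0.22. The other 21579 clusters had a median of -0.03.

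**Figure D4:**
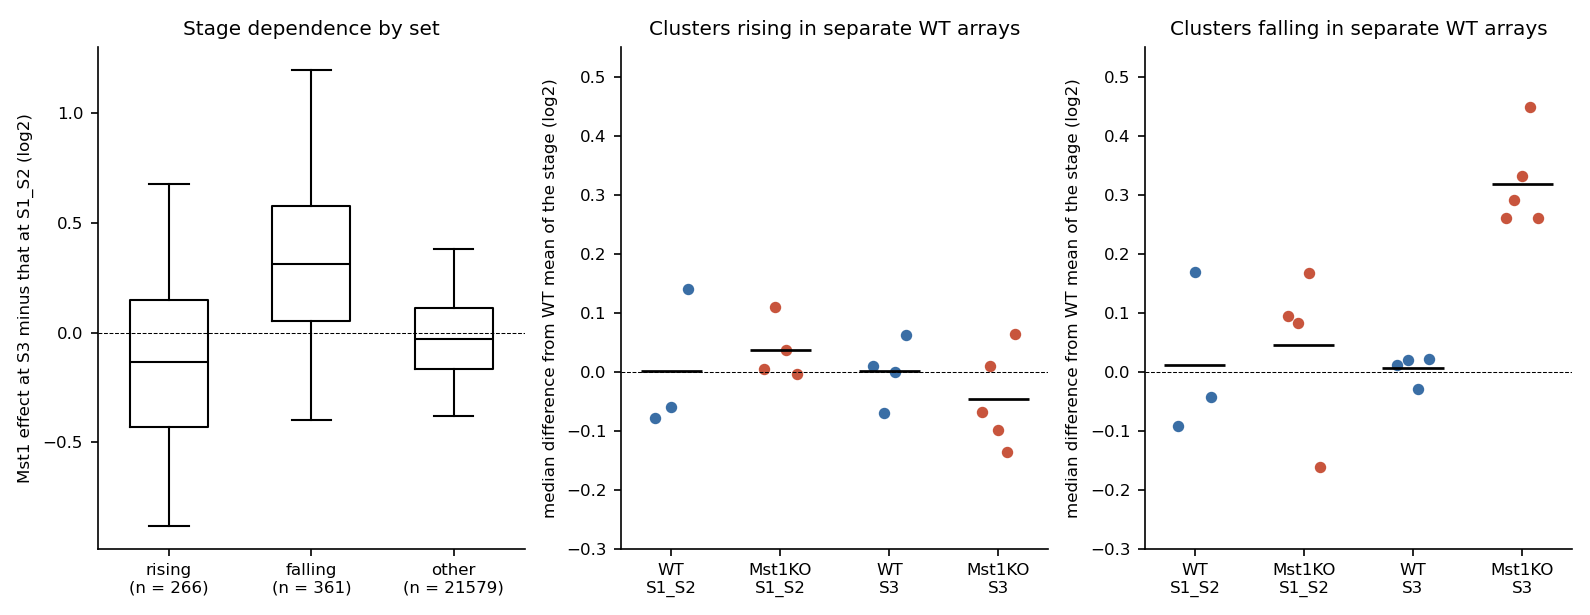
Left, stage dependence (log2) of clusters rising or falling between the stages in second-run WT arrays and of all others, with box quartiles and whiskers at the 5th and 95th percentiles. Middle and right, the median difference from the WT mean of the same stage on each of the 16 arrays, where the Mst1KO_S3 arrays lie at 0.26 to 0.45 for falling clusters.

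Genes of iNKT subsets were divided. Of 19 NKT1 genes measured, 2 passed with a negative value (Gzma and Ly6c2) and the median was -0.18. This median ran from -0.41 to 0.04 when single arrays were left out, so it has no settled direction. Tbx21, the NKT1 transcription factor gene, was at 0.11 ± 0.24 (limma, adjusted p = 0.95). Of 14 NKT2 genes and 18 NKT17 genes none passed in limma. An unadjusted p under 0.05 was reached by 2 and 3 of them, beside 7.48% of all clusters. The medians of these lists were -0.08 and -0.43. NKT17 genes had median effects of 0.84 at S1_S2 and 0.46 at S3, where 3 of 18 rose, beside 1.94% of all clusters. Their mean level was 8.79 to 9.04 in WT_S1_S2 and 9.59 to 9.77 in Mst1KO_S1_S2, and 7.59 to 8.91 in WT_S3 and 8.90 to 9.37 in Mst1KO_S3, with WT_S3 replicate 4 at 7.59 and the other 3 WT_S3 arrays at 8.87 to 8.91. The median stage dependence ran from -0.84 to -0.22 when single arrays were left out. With second-run WT arrays the NKT17 median was 0.11, of the other sign. The water channel gene Aqp3, at -0.84 ± 0.24 (limma, adjusted p = 0.35), had the smallest p of the list.

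NK receptor genes, which rise steeply at S3, had a median of 0.12 over 20 genes, of which none passed in limma. An unadjusted p under 0.05 was reached by 8 of the 20, 5 positive and 3 negative, beside 7.48% of all clusters. The median of the list ran from -0.10 to 0.33 when single arrays were left out. Members of the NKG2 family stood at its top, with Klrk1 (NKG2D) at 1.65 ± 0.43 (limma, adjusted p = 0.30), but at S1_S2 Klrk1 was above the negative controls on 2 of 3 WT and 0 of 4 Mst1KO arrays. At the other end lay Ncr1 at -1.13. Itga2, the integrin alpha 2 gene, read 8.44 to 8.97 and 7.502 to 8.39 at S1_S2, then 8.54 to 9.54 in WT_S3 and 9.94 to 10.10 in Mst1KO_S3, with a stage dependence of 1.43 ± 0.29 (limma, adjusted p = 0.12). Tyrobp, the adaptor DAP12, was at 0.71 ± 0.20 (limma, adjusted p = 0.35).

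Of the Hippo components 25 were measured, and none passed in limma, with a median of 0.04. An unadjusted p under 0.05 was reached by 4 of them, beside 7.48% of all clusters. Stk3, which encodes the related kinase Mst2, has no cluster named in the probe table. YAP and TAZ target genes (22) had a median of -0.11, none passed in limma and 3 had an unadjusted p under 0.05, with the receptor kinase Axl at 0.66 ± 0.21 and Gadd45b at -0.64 ± 0.23 (limma, adjusted p = 0.45 and 0.55) as the smallest p. Quiescence-associated genes (22) had a median of -0.07, 2 at an unadjusted p under 0.05 and none passing in limma, with Klf4 at -0.76 ± 0.18 and Klf6 at -0.68 ± 0.24 (limma, adjusted p = 0.19 and 0.51). Receptor signal and immediate early genes (25), adhesion and egress genes (19) and cytokine receptors (20) had medians of -0.06, 0.13 and -0.06, with Ccr9 the one call. An unadjusted p under 0.05 was reached by 5, 9 and 3 genes of these lists, beside 7.48% of all clusters. Of those 9, 7 had a positive value and 2 a negative one. At S3 7 adhesion and egress genes rose and none fell, beside 1.94% and 1.12% of all clusters. Without single arrays the medians of the lists ran from -0.11 to 0.03, from 0.00 to 0.26 and from -0.13 to -0.01. Among these, Itgae was at -0.99 ± 0.23, Il7r at -0.43 ± 0.12 and Tgfbr2 at -0.42 ± 0.13 (limma, adjusted p = 0.20, 0.31 and 0.43). The pro-apoptotic gene Bcl2l11 (Bim) fell by 0.89 at S3 (limma, adjusted p = 0.00092) against -0.24 at S1_S2, and its stage dependence of -0.65 ± 0.19 did not pass (adjusted p = 0.37). Metabolic lists had medians of 0.03 to 0.16, and the prenyl diphosphate synthase gene Fdps had 0.58 ± 0.15 (limma, adjusted p = 0.27).

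**Figure D5:**
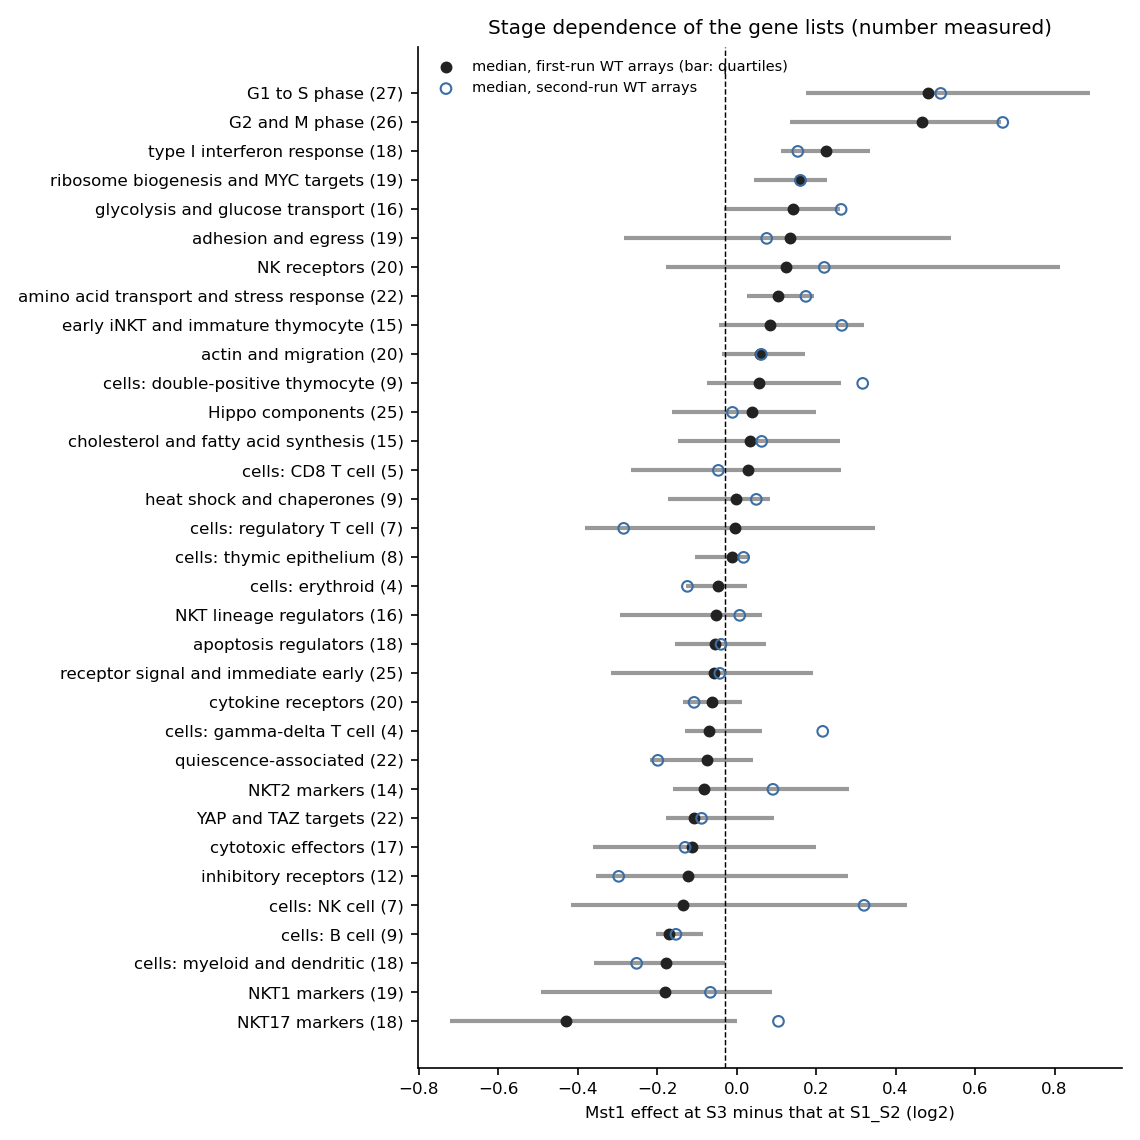
Median Mst1 effect at S3 minus that at S1_S2 (log2) of 33 gene lists, with quartiles as bars, from the 16 arrays (filled) and with second-run WT arrays (open). The dashed line is the median of all clusters, -0.03. Both cell cycle lists lie highest with either set of WT arrays, and the NKT17 list lies lowest with the first and above the line with the second.

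Markers of other cells ranged from the level of the negative controls to well above it. CD8 T cell markers had mean levels of 9.70 to 10.10 over the 16 arrays, gamma-delta T cell markers of 7.997 to 9.27 and, at S3, NK cell markers of 8.36 to 8.59. B cell markers had a negative stage dependence in 9 of 9 genes with a median of -0.17 and no call. Their mean level was 6.56 to 6.74 and 6.49 to 6.78 at S1_S2, and 6.69 to 6.91 in WT_S3 and 6.51 to 6.72 in Mst1KO_S3, close to the negative controls. Myeloid and dendritic markers (18) had a median of -0.18 and a mean level of 6.90 to 7.14 in WT_S3 and 6.84 to 6.95 in Mst1KO_S3. NK cell markers (7) had a median of -0.13, which ran from -0.21 to 0.01 without single arrays and was 0.32 with second-run WT arrays. That of double-positive thymocyte markers (9) was 0.06, with a range of -0.06 to 0.20 and 0.32 by the same changes, so neither has a settled direction. No marker of the 9 lists of other cells passed for stage dependence in limma. An unadjusted p under 0.05 was reached by 4 of 7 NK cell and 4 of 18 myeloid and dendritic markers, beside 7.48% of all clusters. It was also reached by 2 of 7 regulatory T cell, 1 of 9 B cell and 1 of 5 CD8 T cell markers. The part of these cells in the values above was not tested.

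Most of the Mst1 effect was shared in direction by the stages, which have separate arrays. Of the 431 clusters higher at S3 84.92% were also higher at S1_S2, with medians of 0.63 and 0.20. Of the 248 lower at S3 77.42% were lower at S1_S2 (-0.50 and -0.13). Of the 42 higher and 22 lower at S1_S2, 90.48% and 81.82% had the same sign at S3, with medians of 1.00 against 0.49 and -0.88 against -0.24. Over all clusters 60.34% had the same sign. A stage that chose a set is favoured by that choice, so these medians are no measure of stage dependence. Across the 22206 clusters the effects correlated at 0.37, a description over genes, which are not replicates. In all 26 clusters passed at both stages in the same direction and 0 in opposite directions.

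Among those 26, the phospholipid flippase gene Atp8a2 fell by 1.77 at S1_S2 and by 2.14 at S3, with a stage dependence of -0.37 (95% interval -0.83 to 0.09). The cytokine gene Il4 fell by 0.70 and by 0.78, with -0.09 (-0.39 to 0.22). Cd69, a retention and activation marker, rose by 1.09 and 0.78 (difference -0.32, -0.78 to 0.15), and the immediate early gene Jun rose by 1.56 and 1.09 (-0.48, -1.22 to 0.27). The RNA decay factor gene Zfp36 rose by 0.61 and 0.62, and Ech1, a fatty acid oxidation enzyme gene, by 0.51 and 0.55, with differences of 0.02 (-0.29 to 0.32) and 0.03 (-0.23 to 0.30). Emp1, a membrane protein gene, rose by 1.08 and 1.64, with 0.56 (0.21 to 0.91, limma adjusted p = 0.41), and Jaml rose by 1.64 and 0.71. These intervals are for single genes and are not adjusted over genes.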

How the data were processed

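The submitters' processing notes name RMA and Affymetrix Expression Console 1.1 for the values the authors deposited, which are on a log2 scale. NuGEN kits were used for amplification and biotin labelling, per the labels' protocols. Genes are named without coordinates, as the build behind the array annotation was not given, except for the RefSeq promoter windows (GRCm38.p6).

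The table has 28846 items. Of these 6640 are controls, and the other 22206 are transcript clusters, all of which were tested, 19572 with 1 gene symbol and 2634 with none. Values were used as deposited. For the fit, limma 3.58.1 under R 4.3.3 estimated a mean for each of the 4 groups, with moderated variances and 12 residual degrees of freedom. Benjamini-Hochberg adjustment ran over every cluster, with calls at 0.05 and no minimum fold. A cluster counts as above background on an array where it exceeds the median of that array's negative controls. Where a group had no such array, its level was raised to the control median wherever it was lower, and the difference from the brighter group is a bound. Of the clusters, 14651 (66%) had a group above controls on every array. The number of arrays limits the precision.

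Named genes were the called clusters with 1 symbol or, with fewer than 8 in a direction, the 8 with the smallest p, up to 3 called members of a list or the 2 with the smallest p, Stk4 and the sort markers. Other cell cycle, granule and subset genes and those called at both stages were named after their values were seen. The gene lists are described by counts and medians with no test. The members and lists were chosen with earlier results of these data known. The code was checked on simulated data. Alternatives used all 25 arrays, other normalization, variance and filters, a minimum fold of 1.5, terms for Y-linked signal, and left out each array in turn. The second-run WT arrays in place of the first, and a block of stage pairs by title number, were added after seeing the data. A run difference shared by both stages cancels in that comparison.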

Additional observations from a re-analysis of the deposited data

Results flagged for a closer look

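The Mst1 effect differed between S1_S2 and S3 by a limma test of the difference itself (adjusted p under 0.05) for 10 genes. The S3 effect minus the S1_S2 effect was positive for Tia1 (1.05), Cfap20dc (1.54), Dzip1 (0.87), Ccr9 (1.85) and E2f8 (1.71), and negative for Gzma (-2.38), Ly6c2 (-0.96), Bhlhe40 (-1.06), Ly6c1 (-0.85) and Hlf (-0.98). These are fitted values. Cfap20dc was above the negative controls on no S3 array, so its S3 effect was not measured, and the value of Hlf rests on levels at the detection limit.

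A single array stood far from the rest of its group in 9 of the 159 groups of values looked at, where chance gives about 1 in 20. In WT_S3, Eng read 7.13 on replicate 3 against 6.37 to 6.47 on the others, and Nars read 10.58 on replicate 2 against 10.41 to 10.43. In Mst1KO_S1_S2, Jaml read 10.97 on replicate 3 against 11.16 to 11.19, and Klf4 read 9.37 on replicate 2 against 9.14 to 9.16. In Mst1KO_S3, Nfil3 read 10.003 on replicate 4 against 9.16 to 9.31. Replicate 5 of that group was low for 4 genes, Hlf at 6.03 against 6.44 to 6.498, Klf4 at 8.64 against 8.93 to 9.01, Psat1 at 7.73 against 8.67 to 8.93 and Emp1 at 10.17 against 10.45 to 10.53.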

How the results depend on the processing

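The labels state no pairing of the stages, but in 7 pairs of the same genotype the title numbers lie 16 apart. Deviations from the group means correlated at 0.05 to 0.22 within these pairs, above 0.1 in 4, and 5 were best matched by their own partner, a hint from the data and not the design. With them as a fixed replicate block, a fit of 14 arrays with 5 residual degrees of freedom, limma called 0 clusters (1694 at an unadjusted p under 0.05, against 1660 unblocked), where the same arrays gave 7 without the block. As a random replicate block over 16 arrays (correlation 0.09) they gave 17, the 10 among them. The 10 clusters with a stage-dependent effect became 35 with all 25 arrays and a run term, 17 without that term, 16 with each array centred on its median, 26 with a trended and robust variance, 2 on arrays with Y-linked signal (Gzma and Nfil3), 1 with a minimum fold of 1.5 and 37 with second-run WT arrays. The 64 clusters changed at S1_S2 became 116, 148 with no run term, 9 on arrays with Y-linked signal, 39 with a term for it and 3 with a minimum fold. The 679 at S3 became 1415 with the run term, 105 on arrays with Y-linked signal and 6 with a minimum fold. Centring split the S3 calls into 552 higher and 176 lower, against 431 and 248. Leaving out single arrays gave 2 to 21, 13 to 108 and 342 to 784. The median of falling clusters was 0.14 with no minimum step and 0.58 with a minimum of 2, and 0.21 to 0.37 without single arrays, and that of rising clusters -0.22 to -0.10. For these sets the 25-array fits were not run, since those arrays chose the clusters. Fits on fewer arrays are less precise, yet leaving out single arrays gave more calls in some cases and fewer in others. The cause of these changes was not tested. The median over all clusters was -0.03 as deposited, -0.01 after quantile normalization and 0.00 after centring. Over 53 named genes and up to 28 settings, 1457 values kept their direction and 26 did not. Values near the negative controls limit Gzma, Cfap20dc, Hlf, Ccr9, E2f8, Dtl and Klrk1.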

Other observations

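The 37 clusters called with second-run WT arrays held 7 replication-dependent histone genes, a set named after its values were seen. Over 49 measured clusters of the H2ac, H2bc, H3c and H4c families, 47 were positive with those arrays, with a median stage dependence of 0.61, and 34 with the first-run WT arrays, with a median of 0.16 and no call. The endothelial phosphatase gene Ptprb was at 2.51 ± 0.27 with second-run and 1.77 ± 0.41 with first-run WT arrays (limma, adjusted p = 0.0021 and 0.17). The unconventional myosin gene Myo6 was at 1.41 ± 0.18 and 1.34 ± 0.44 (limma, adjusted p = 0.0088 and 0.47), and the replication-linked methylation factor gene Uhrf1 at 0.83 ± 0.15 and 0.94 ± 0.24 (limma, adjusted p = 0.034 and 0.28). All 37 had the same sign with the first-run WT arrays, and both comparisons share the Mst1KO arrays.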
